A study of Oryctolagus cuniculus with 30 samples.

Results

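Epidermis of a rabbit skin wound that had been kept under film for 3 days after closure was compared with unwounded epidermis. The comparison took the 5 arrays of covered wounds at day 3 and the 2 arrays of unwounded skin, which are 7 of the 30 arrays of the series, chosen by their labels. It asks how far the covered wound still differed from skin that had not been wounded. Because the 2 unwounded arrays lay on different slides and scan days, each change was also measured against each of them alone.

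The rabbits were New Zealand White, a common laboratory breed, and all were female. Each sample was hybridised to a 1-colour (Cy3) Agilent array of a custom rabbit design. For the covered group, an incision grid cut into the skin of the ear stayed under 1 layer of Tegaderm, a clear adhesive wound film. It closed 2 days after wounding, and closure is here called day 0. The left ear then received 4 further layers, and epidermis was taken at day 3. The unwounded group is labelled as normal skin epithelium, with no treatment or time, and the labels do not say from which body site it was taken. Other groups used for reference were wounds at day 0 (n = 6), uncovered wounds of the right ear at day 3 (n = 6) and covered wounds at day 5 (n = 5). Uncovered wounds at day 5 (n = 6) entered the fit and the measures taken over all arrays outside the comparison. In every group the epidermis was freed from the dermis with 0.5 M ammonium thiocyanate over 30 min, and labelling started from 400 ng of total RNA. No label says which arrays came from the same animal, so the p-values measure the spread between these samples, which may be technical. With bulk epidermis, fewer cells of a type and less RNA per cell cannot be told apart.

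Epidermis that closes over a wound passes through an activated state, in which keratinocytes migrate, divide and release signals that recruit immune cells, before it returns to a layered water barrier. A new epidermis has an immature barrier and loses water, and occlusive film limits that loss. Film dressings are used clinically for this reason, and the state of the tissue beneath them can be set against intact skin. The array files give every probe a clone or contig name and no gene name, and no probe could be paired with a gene here. The tissue label was therefore not checked against marker genes, and the results are ordered by how probes behaved and not by the function of their genes.

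Probes are 60 bases long. The sequences below are those of the 7 probes outside the group of very large changes that were called, in the same direction, against both unwounded arrays together and against each alone, with 2 further probes of the same clones, so that each change can be tied to a transcript. The first 6 lie higher and the last 3 lie lower in covered wounds. They are the deposited probe sequences, written 5′ to 3′, with no capitals because no stretch is singled out.
UF_Ocu_AF_112646: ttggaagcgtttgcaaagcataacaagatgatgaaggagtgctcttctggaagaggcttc
UF_Ocu_AF_112647: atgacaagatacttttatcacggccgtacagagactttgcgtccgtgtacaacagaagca
UF_Ocu_AF_103676: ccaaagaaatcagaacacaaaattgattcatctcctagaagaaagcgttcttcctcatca
UF_Ocu_AF_103675: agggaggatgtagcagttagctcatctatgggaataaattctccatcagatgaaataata
UF_Ocu_AF_106538: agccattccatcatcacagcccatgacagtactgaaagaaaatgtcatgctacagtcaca
UF_Ocu_AF_110296: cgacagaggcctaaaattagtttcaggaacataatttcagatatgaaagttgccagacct
UF_Ocu_AF_102078: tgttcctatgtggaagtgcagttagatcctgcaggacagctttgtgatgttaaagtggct
UF_Ocu_AF_102079: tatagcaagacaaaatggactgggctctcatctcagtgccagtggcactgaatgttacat
UF_Ocu_AF_111667: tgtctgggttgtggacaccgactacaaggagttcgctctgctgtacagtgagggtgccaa

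Few probes set the covered wound at day 3 apart from unwounded epidermis. A probe was called where its Benjamini-Hochberg adjusted p from limma was under 0.05, and 314 of the 12341 probes tested were called (2.54%). Of these, 197 were higher in covered wounds (1.6%) and 117 were lower (0.948%), and 212 changed at least 2-fold (1.72%). Levels are log2 units relative to the 75th percentile of each array, and a change is the mean level of covered wounds minus that of unwounded skin. At least a 2-fold change was reached by 124 of the higher (1.0% of tested) and 88 of the lower probes (0.713%), and at least 16-fold by 7 and 6. These are fitted changes. For a probe at background in 1 group the measured signal gives a lower bound, printed as at least so many fold. The higher probes had a median log2 change of 1.15 and came from 166 clones or contigs. The lower ones had a median of -1.33 and came from 103. Over all tested probes the median change was 0.09 and its median size was 0.39, against a median standard error of 0.36. Without adjustment, 2334 probes had p under 0.05 (18.9%).

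Most tested probes could be neither called different nor shown to be close. The 95% interval of the change lay within 2-fold in both directions for 4844 probes (39.3%), and wholly beyond 2-fold for 69. For the remaining 7428 (60.2%) it did neither. On simulated arrays with the spread of the 12341 real probes, the same comparison called 34.3% of probes changed 2-fold and 74.2% of those changed 4-fold, and 3 unchanged probes. The simulated noise was independent, with 1 spread per probe in all groups and no effect of slide or scan day. These figures need not hold for the real arrays, whose 2 unwounded arrays were at least 2-fold apart for 26.5% of tested probes. With intervals this wide, a probe that was not called is not shown to have returned to its unwounded level.

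The count of calls turned on which unwounded array was used. Against unwounded replicate 1 alone, 11 probes were called (0.0891%), 6 higher (0.0486%) and 5 lower (0.0405%). Against unwounded replicate 2 alone, 1873 were called (15.2%), 1400 higher (11.3%) and 473 lower (3.83%). A single unwounded array has no spread of its own, and in these tests it is assumed to vary like the arrays of the other groups. The median size of the change was 0.31 against replicate 1 and 0.58 against replicate 2. Of the 314 called probes, 279 were called against replicate 2 alone and 9 against replicate 1 alone. The change was larger against replicate 2 for 82.0% of the called probes that had both values, against 71.3% of all tested probes. Of the 314, 311 lay on the same side of each unwounded array and the other 3 had a value on 1 of them. All 5 covered arrays lay on 1 side of both unwounded arrays for 303 of the 314, a pattern found in 25.0% of all tested probes. Both counts follow in part from the call itself, and no share of all tested probes was taken for the first.

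**Figure D1:**
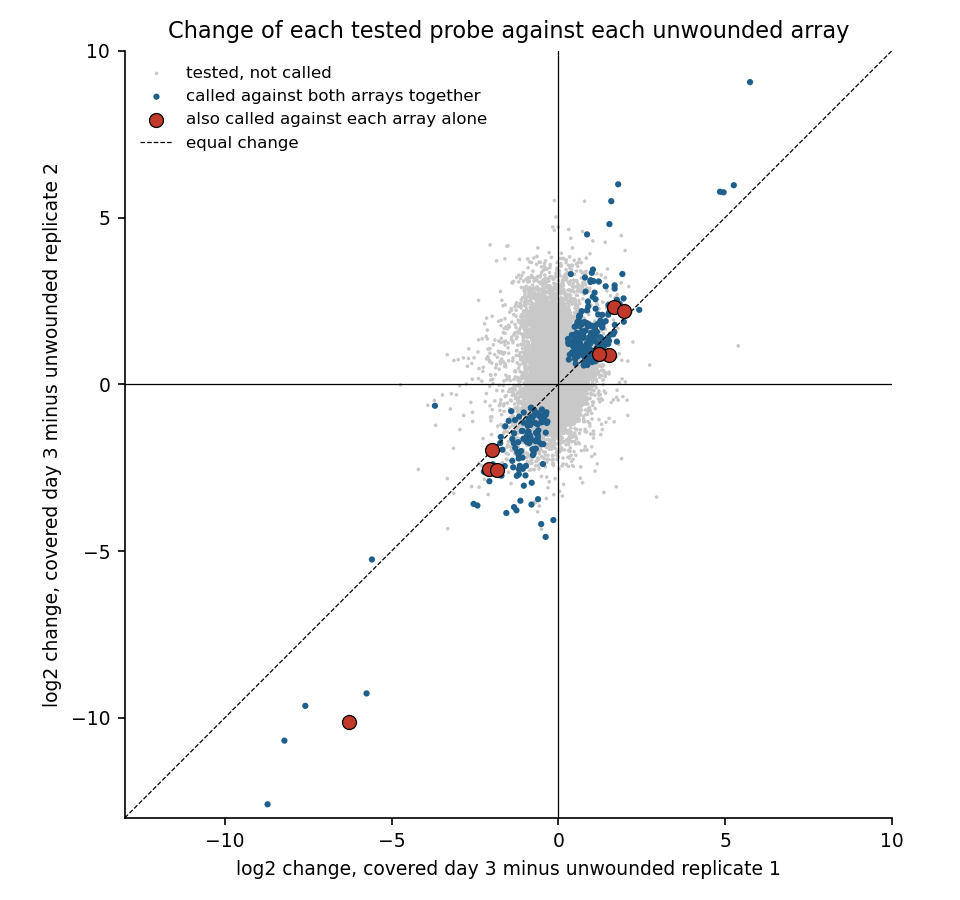
Each point is 1 tested probe, with its log2 change of covered day 3 wounds (n = 5) against unwounded replicate 1 on the horizontal axis and against unwounded replicate 2 on the vertical axis. Grey points were tested and not called, blue points were called against both arrays together, and the 8 red points were also called against each array alone. The grey cloud is taller than it is wide, as the median size of the change was 0.58 against replicate 2 and 0.31 against replicate 1. The 3 called probes without a value for replicate 2 are not drawn.

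The 2 unwounded arrays differed from each other by more than the covered arrays differed from unwounded replicate 1. Their levels were at least 2-fold apart for 26.5% of tested probes, with a median gap of 0.49. Covered arrays differed from unwounded replicate 1 at least 2-fold for 7.57% to 15.0% of probes, and from unwounded replicate 2 for 25.8% to 35.9%. Among themselves the covered arrays were at least 2-fold apart for 2.12% to 16.6% of probes. The smallest of these shares were those among covered replicates 1 to 3 and between replicates 4 and 5, and replicates 4 and 5 were the closest to unwounded replicate 2, with r of 0.951 and 0.953 across probes. Unwounded replicate 2 shared slide 6 and scan day 1 with covered day 5 replicate 1 and with no covered day 3 array. Unwounded replicate 1 shared slide 5 and scan day 3 with covered day 3 replicate 1. Of the 23369 probes, 41.0% to 50.4% were detected well above background on these 7 arrays, and covered replicate 4 had the highest share.

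Slide 5 holds 1 covered and 1 unwounded array, and gives the comparison within a slide. There the covered array was at least 2-fold apart from the unwounded array for 934 probes (7.57%), 2.58% higher and 4.98% lower. All 314 called probes lay on slide 5 in the direction of their call. Both arrays had also entered the fit, and the groups did not overlap for 303 of the 314. This count therefore follows largely from the calls, and no share of all tested probes was taken for it. Leaving out the 4 arrays of slide 5 made that slide a separate check, a setting chosen after the data had been seen. The remaining arrays gave 832 calls (6.74%; 4.93% higher, 1.81% lower), of which 710 (85.3%) went the same way on slide 5, against 67.4% of all tested probes. The sizes differed. The 609 higher calls had a median log2 change of 2.04 without slide 5 and a median difference of 0.31 on slide 5. For the 223 lower calls these were -1.82 and -0.46. A fixed block for slide gave 355 calls (2.88%), 152 of them among the 314 and in the same direction. The split then turned to 153 higher (1.24%) and 202 lower (1.64%). A fixed block for scan day gave 84 higher and 130 lower, and 92 of the 314 were among them.

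**Figure D2:**
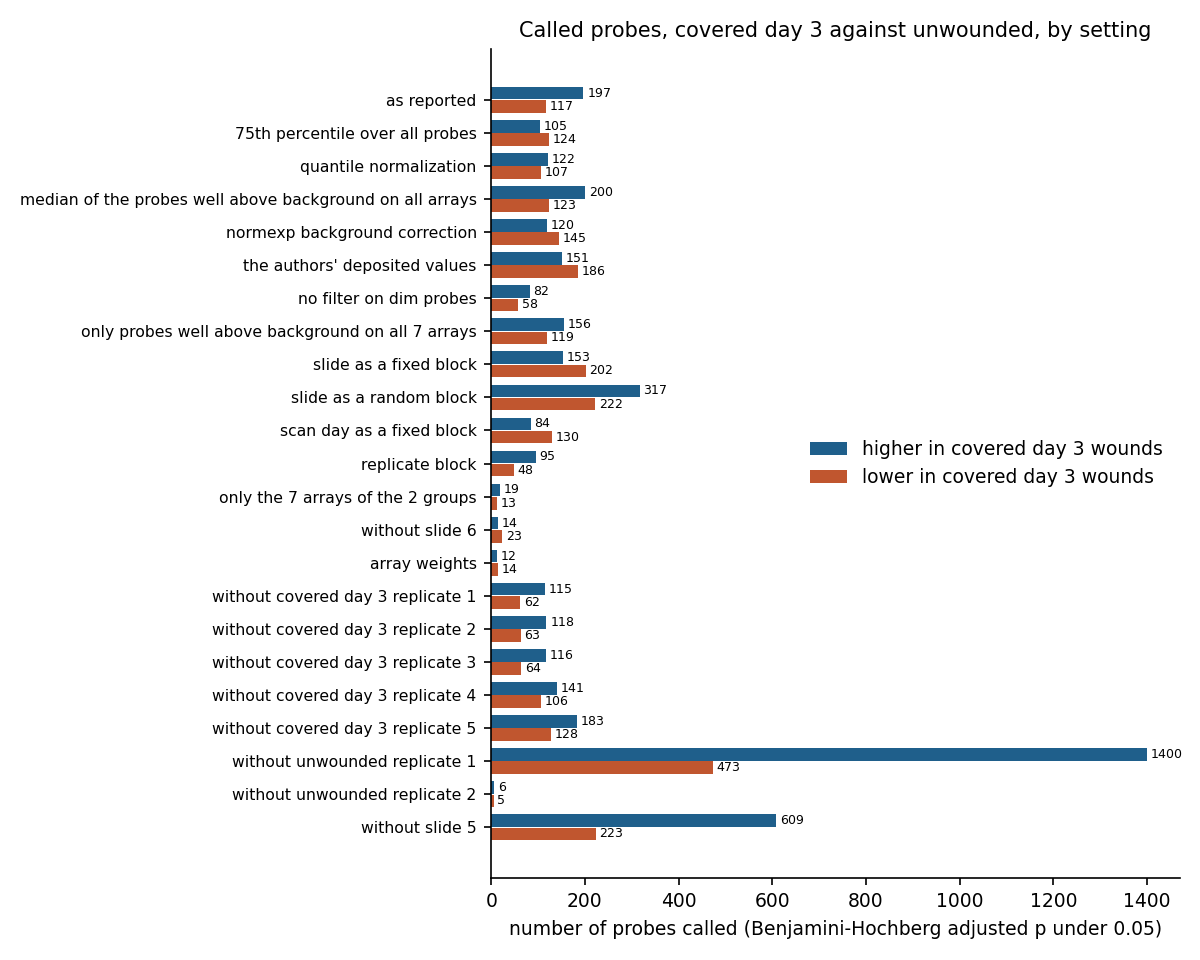
Bars give the number of probes called higher (blue) and lower (orange) in covered day 3 wounds than in unwounded skin, for the setting as reported at the top and for each alternative below it. The reported setting has 197 and 117. The longest pair, 1400 and 473, leaves out unwounded replicate 1, and the shortest, 6 and 5, leaves out unwounded replicate 2.

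Against both unwounded arrays together and against each alone, 8 probes of 7 clones or contigs were called in the same direction (0.0648%), 4 higher and 4 lower. UF_Ocu_AF_112646, from clone nag36b01.y1, changed most among the rises. It lay at -3.70, -3.53, -3.89, -2.92 and -3.55 in covered replicates 1 to 5, against -5.47 and -5.72 in unwounded replicates 1 and 2. Every covered array was higher than both unwounded arrays, and the gap between groups was wider than the spread within either. The mean was -3.52 ± 0.36 under film (SD, n = 5) against -5.60 ± 0.18 in unwounded skin (SD, n = 2), 4.23-fold higher (log2 change 2.08, SE 0.28, limma adjusted p = 0.000154). A further probe of the clone, UF_Ocu_AF_112647, was 2.71-fold higher (limma adjusted p = 0.00939), with -4.14 ± 0.33 under film (SD, n = 5) against -5.58 ± 0.06 in unwounded skin (SD, n = 2). On slide 5 the covered array exceeded the unwounded one by 1.78 for the first probe and 1.35 for the further one.

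The other rises were smaller or lay near background. UF_Ocu_AF_103676, from clone naf03e06.y1, lay at -5.04, -4.82, -4.95, -4.47 and -4.62 in covered wounds and was well above background on all 5. In unwounded skin it lay at -6.44 and -7.09, not well above background on either array. It was at least 3.63-fold higher in covered wounds, a bound set, on each unwounded array, by this probe's signal or by the dimmest signal counted as well above background, whichever was higher (limma adjusted p = 1.15e-05). The measured means were -4.78 ± 0.23 under film (SD, n = 5) and -6.77 ± 0.46 in unwounded skin (SD, n = 2). Its partner on the same clone, UF_Ocu_AF_103675, was measured on all 7 arrays and was 2.28-fold higher (limma adjusted p = 0.00461). That partner lay at -3.88, -3.93, -3.93, -3.54 and -3.58 in covered wounds, against -4.96 on both unwounded arrays. The groups did not overlap for either probe.

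UF_Ocu_AF_106538, from clone naf27c06.y1, lay at -6.13, -6.41, -6.01, -5.84 and -6.49 in covered wounds, against -7.70 and -7.07 in unwounded skin. In covered wounds 3 of 5 arrays were well above background and in unwounded skin neither was. By the rule used for the bound of UF_Ocu_AF_103676 the rise was 1.38-fold (limma adjusted p = 0.00276). That is no firm lower limit, because covered arrays at background enter the mean. The probe had measured means of -6.18 ± 0.27 under film (SD, n = 5) and -7.38 ± 0.45 in unwounded skin (SD, n = 2). It was not called with quantile normalization, normexp or the authors' deposited values, nor without slide 5. Against each unwounded array it was called in 2 of 6 scalings. UF_Ocu_AF_110296, from contig R4.3809.C1, had the narrowest spread of the 4 in covered wounds. It lay at -3.95, -3.64, -3.96, -3.79 and -4.01 in covered wounds, against -5.08 and -4.79 in unwounded skin, 2.09-fold higher (limma adjusted p = 0.0021). It was not called with the 7 arrays alone (limma adjusted p = 0.0732, the highest of its alternatives) or with array weights, and was called against each unwounded array in 3 of 6 scalings. The companion probe of that contig, UF_Ocu_AF_110295, did not follow it. Its level was 2.07 ± 0.35 under film (SD, n = 5) against 2.51 ± 0.40 in unwounded skin (SD, n = 2), a log2 change of -0.44 (limma adjusted p = 0.469), and the groups overlapped.

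Among the falls, both probes of contig R4.4609.C1 agreed in direction and size. UF_Ocu_AF_102079 lay at -5.27, -5.61, -5.48, -4.87 and -5.02 in covered wounds, against -3.25 and -3.28 in unwounded skin. UF_Ocu_AF_102078 lay at -6.11, -5.95, -6.16, -5.27 and -5.52 in covered wounds, against -3.74 and -3.25 in unwounded skin. No covered array reached the lower unwounded array for either probe. The first was 3.95-fold lower (log2 change -1.98, SE 0.23, limma adjusted p = 1.15e-05). The other was 4.96-fold lower (log2 change -2.31, SE 0.24, limma adjusted p = 3.41e-06). Covered replicates 1 and 3 were not well above background for that probe. Against unwounded replicate 2 alone the log2 change of UF_Ocu_AF_102079 was -1.97, and the difference on slide 5 was -2.02.

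UF_Ocu_AF_111667, from contig R4.sd.291.C2, lay at -8.40, -8.03, -8.65, -8.44 and -8.40 in covered wounds, with no array well above background. In unwounded skin it lay at -6.54 and -5.83, and the second of these was well above background. By the rule used for the bounds it was 1.58-fold lower in covered wounds (limma adjusted p = 1.56e-05). That is no firm lower limit, because unwounded replicate 1, not well above background, enters the mean. The probe had measured means of -8.38 ± 0.22 under film (SD, n = 5) and -6.18 ± 0.51 in unwounded skin (SD, n = 2). Against each unwounded array it was called in 3 of 6 scalings. UF_Ocu_AF_103099, from clone nag09c05.y1, lay at -8.43, -8.99, -8.53, -9.65 and -8.46 in covered wounds, again at background throughout. In unwounded skin it lay at -2.54 and 1.33, a gap of 3.87 between those 2 arrays. It was at least 75.3-fold lower in covered wounds (limma adjusted p = 3.18e-05), with measured means of -8.81 in covered wounds and -0.61 in unwounded skin, and belongs with the very large changes described further on.

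**Figure D3:**
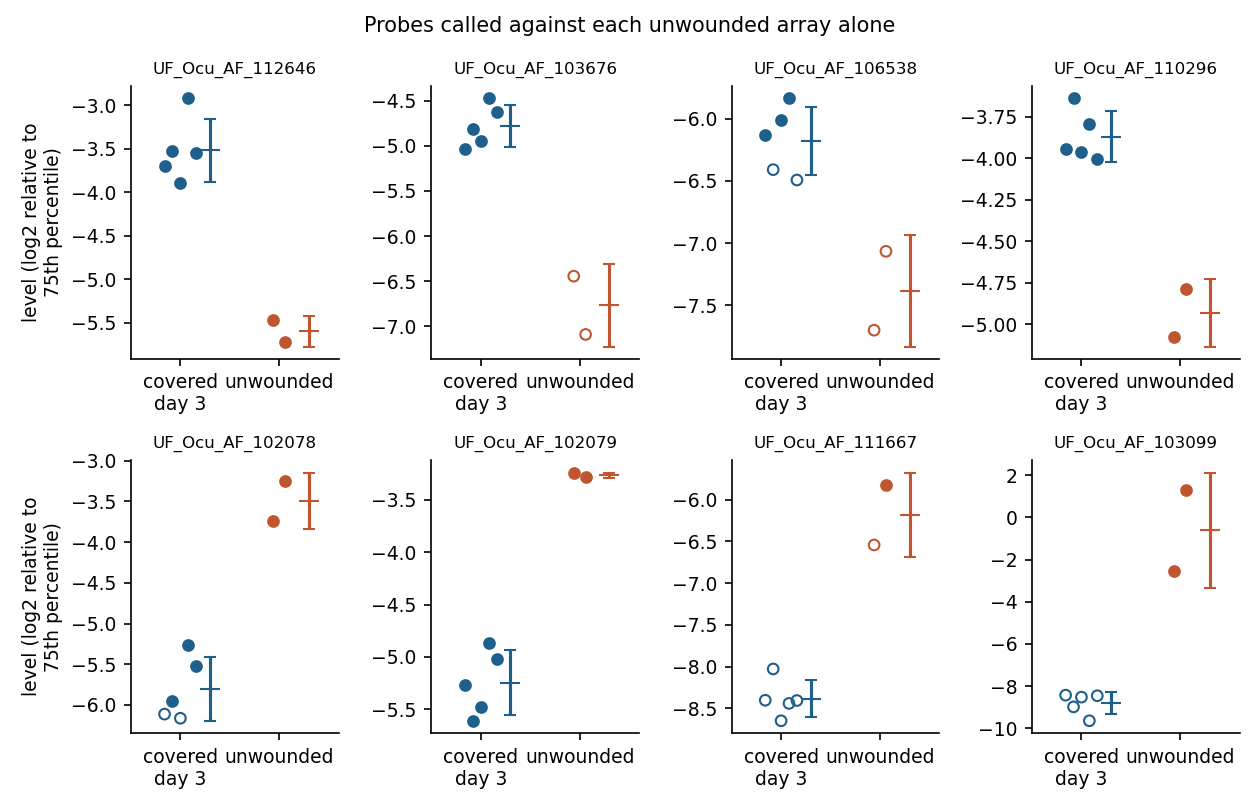
The level of each of the 8 probes is shown for every covered day 3 array (blue, n = 5) and every unwounded array (orange, n = 2), in log2 units relative to the 75th percentile of the array. Filled points were well above background and open points were not, and the bar beside each group is the mean ± SD. The groups do not overlap in any panel, and each panel has its own vertical scale.

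The 8 probes followed different courses through the wound. UF_Ocu_AF_112646 lay at -5.68 ± 0.27 at day 0 (SD, n = 6), a log2 change of -0.08 against unwounded skin (limma adjusted p = 0.845). Covered wounds at day 3 exceeded day 0 by 2.16 (SE 0.21, limma adjusted p = 3.16e-09; 44.5% of probes were called in that comparison), a test in which the unwounded arrays cancel. The covered arrays, by which the 8 probes were also chosen, do not cancel. This test and those that follow for the 8 probes are therefore not independent of the choice. Covered wounds also exceeded uncovered wounds at day 3, which lay at -4.20 ± 0.28 (SD, n = 6). The difference was 0.68 (SE 0.21, limma adjusted p = 0.0229; 16.3% of probes called). UF_Ocu_AF_112647 again went with it against day 0, by 2.22 (SE 0.22, limma adjusted p = 5.19e-09, with 4 of 6 day 0 arrays well above background), while its difference from uncovered wounds was 0.52 (limma adjusted p = 0.107). From day 3 to day 5 under film the change of UF_Ocu_AF_112646 was 0.32 (SE 0.22, limma adjusted p = 0.28; 22.3% of probes called).

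UF_Ocu_AF_103676 was also higher in covered than in uncovered wounds at day 3, by 0.62 (SE 0.16, limma adjusted p = 0.00967), and its partner UF_Ocu_AF_103675 by 0.57 (SE 0.17, limma adjusted p = 0.0183). The other 6 of the 8 were not called between covered and uncovered wounds at day 3. For UF_Ocu_AF_103099 and UF_Ocu_AF_111667 both groups were at background on every array, so that no difference can be given. The differences of the other 4 ran from -0.08 for UF_Ocu_AF_102078 to 0.30 for UF_Ocu_AF_106538, for which 3 of 5 covered arrays were well above background, against 1 of 6 uncovered ones. UF_Ocu_AF_106538 went on rising under film, by 0.95 at day 5 over day 3 (SE 0.16, limma adjusted p = 0.000179). By contrast UF_Ocu_AF_110296 changed by 0.18 over the same days (SE 0.14, limma adjusted p = 0.358).

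Both probes of contig R4.4609.C1 were higher again by day 5. At day 5 over day 3 under film, UF_Ocu_AF_102078 rose by 1.25 (SE 0.18, limma adjusted p = 2.15e-05) and UF_Ocu_AF_102079 by 1.11 (SE 0.17, limma adjusted p = 5.74e-05). Both were still lower in covered wounds at day 5 than in unwounded skin, by a log2 change of -1.06 (limma adjusted p = 0.00533) and -0.87 (limma adjusted p = 0.0168), in a comparison that shares the unwounded arrays and called 7.87% of probes. Covered wounds at day 3 also lay below day 0 for both, by -0.78 (limma adjusted p = 0.000488) and -0.57 (limma adjusted p = 0.00618). So day 3 held the lowest mean of the covered course for this contig. UF_Ocu_AF_111667 was at background on every covered array at day 3 and on 4 of 5 at day 5, so that no size of change can be given for it.

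**Figure D4:**
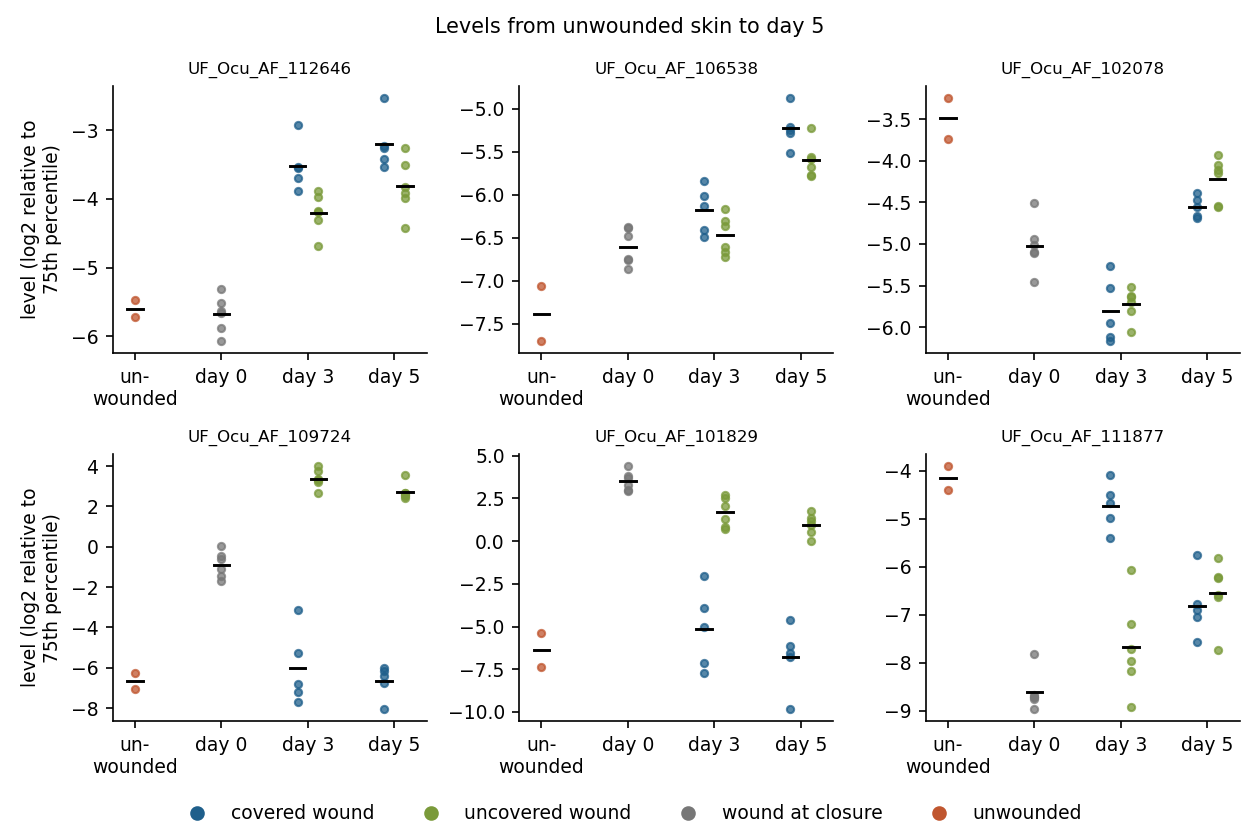
Each panel gives the level of 1 probe on every array, in log2 units relative to the 75th percentile of the array, for unwounded skin, the wound at closure (day 0) and wounds at day 3 and day 5. Covered wounds are blue, uncovered wounds green, day 0 grey and unwounded skin orange, and black bars are group means. UF_Ocu_AF_112646 is low until day 0 and higher at day 3, UF_Ocu_AF_102078 is lowest at day 3, and in the lower row the covered day 3 arrays lie nearer to unwounded skin than the day 0 arrays do.

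Next come 6 probes, named because earlier results of these data showed large differences between covered and uncovered wounds for them. None was called between covered wounds and unwounded skin. UF_Ocu_AF_109724 and UF_Ocu_AF_109723, both of 1 contig, averaged 3.38 and 3.53 in uncovered wounds at day 3. In covered wounds at day 3 UF_Ocu_AF_109724 lay at -7.19, -5.26, -6.79, -3.15 and -7.72, against -6.26 and -7.04 in unwounded skin. Covered replicates 2 and 4 lay above both unwounded arrays. The other 3 covered arrays and both unwounded arrays were not well above background, so that no order among them can be read. The fitted log2 change, which compares background signals in part, was 0.63 (95% interval -0.89 to 2.15, limma adjusted p = 0.663) for this probe and 0.68 (95% interval -0.84 to 2.20, limma adjusted p = 0.638) for UF_Ocu_AF_109723, for which 2 of 5 covered arrays were well above background, against 1 of 2 unwounded ones.

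UF_Ocu_AF_101829 and UF_Ocu_AF_101828, both of another contig, were also not called, with wider spreads. UF_Ocu_AF_101829 lay at -2.01, -5.05, -7.16, -3.90 and -7.73 in covered wounds, against -5.37 and -7.37 in unwounded skin, so that unwounded replicate 1 fell inside the covered range. Covered replicates 3 and 5 and unwounded replicate 2 were not well above background, so that no order among them can be read. Its log2 change was 1.20 (95% interval -1.05 to 3.45, limma adjusted p = 0.571). UF_Ocu_AF_101828 had a log2 change of 1.11 (limma adjusted p = 0.537), and its covered arrays spanned -5.68 to -0.41. Covered replicate 1 held the highest level of both probes, and replicate 5 the lowest of UF_Ocu_AF_101828.

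UF_Ocu_AF_111877 and UF_Ocu_UN_119795 are higher in covered than in uncovered wounds at day 3. UF_Ocu_AF_111877 lay at -4.67, -5.40, -4.50, -5.00 and -4.08 in covered wounds, against -3.91 and -4.41 in unwounded skin. One covered array, replicate 5, lay between the unwounded arrays, and the other 4 lay below both. The log2 change was -0.57 (95% interval -1.66 to 0.53, limma adjusted p = 0.582), and uncovered wounds, at background on all 6 arrays, were at least 4.97-fold lower than the same unwounded arrays (limma adjusted p = 4.71e-05, means of -7.68 and -4.16; 13.7% of probes called). By day 5 under film the probe was lower than at day 3, with a log2 difference of -2.08 (SE 0.40, limma adjusted p = 0.000748), and 1 of 5 arrays was then well above background. UF_Ocu_UN_119795 had a log2 change of -0.55 (95% interval -2.33 to 1.24, limma adjusted p = 0.756).

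The 13 called probes with a fitted change of at least 16-fold, named after their values were seen, come from 11 clones or contigs. For 3 of them, at background in unwounded skin, the measured bound is below 16-fold. Of the 6 falls, 4 were at background on every covered array. UF_Ocu_AF_107910 lay at -8.75, -9.14, -8.68, -7.71 and -6.50 in covered wounds, against 0.56 and 4.44 in unwounded skin, at least 643-fold lower (limma adjusted p = 0.00148). UF_Ocu_AF_107909, of the same clone nag38c02.y1, was at least 69.1-fold lower (limma adjusted p = 0.000674). UF_Ocu_AF_106912, from clone nag26a09.x1, was at least 228-fold lower (limma adjusted p = 0.000616), with -7.63 ± 0.19 under film (SD, n = 5) against 0.99 ± 1.45 in unwounded skin (SD, n = 2). UF_Ocu_AF_103486 from clone nag07a05.y1 lay at -7.94, -6.95, -8.68, -5.60 and -5.03 in covered wounds, against 1.37 and 3.84 in unwounded skin (limma adjusted p = 0.00461). Covered replicates 4 and 5 alone were well above background, so that its fitted log2 change of -9.45 (SE 1.82) rests in part on background signals. UF_Ocu_AF_106134 from clone nbd21a01.y1 was 42.9-fold lower (limma adjusted p = 0.00672). The further probe of that clone, UF_Ocu_AF_106133, was well above background on all 30 arrays and changed by -0.80 (limma adjusted p = 0.575). Apart from UF_Ocu_AF_103099, none of the 13 was called against unwounded replicate 1 alone. For each of these probes the 2 groups lay far apart, while the unwounded arrays themselves differed by 2.06 to 3.87 for UF_Ocu_AF_106912, UF_Ocu_AF_103486, UF_Ocu_AF_107909, UF_Ocu_AF_103099 and UF_Ocu_AF_107910.

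Among the rises of this size, UF_Ocu_AF_100831, from contig R4Sub.22.C1, lay at 3.92, 3.76, 4.00, 3.28 and 2.77 in covered wounds, against -2.20 and -5.51 in unwounded skin. It was 169-fold higher (log2 change 7.40, SE 1.11, limma adjusted p = 0.000654). Its companion UF_Ocu_AF_100832 stayed between 4.70 and 5.79 on all arrays with a value and changed by 0.12 (limma adjusted p = 0.809). UF_Ocu_UN_118574 was at least 10.5-fold higher (limma adjusted p = 0.0369) and UF_Ocu_AF_101376 at least 9.09-fold (limma adjusted p = 0.0186), both at background in unwounded skin. UF_Ocu_AF_111919, from clone naf07a03.x1, was likewise at background there and at least 11-fold higher in covered wounds, with -3.18 ± 0.58 in covered wounds (SD, n = 5) against -8.80 ± 0.50 in unwounded skin (SD, n = 2; limma adjusted p = 0.00289). The further probe of the clone of UF_Ocu_UN_118574, UF_Ocu_UN_115265, had a fitted log2 change of -2.37 (limma adjusted p = 0.166). It was well above background on 3 arrays of the series. UF_Ocu_UN_120397, UF_Ocu_AF_111918 and UF_Ocu_AM_114702 had no value on unwounded replicate 2, where their spots carried outlier flags. They rest on 1 unwounded array, and UF_Ocu_UN_120397, at background there, was at least 61.3-fold higher in covered wounds. Their log2 changes were 6.82, 5.91 and 4.17 (limma adjusted p = 0.0107, 0.0131 and 0.0211). No transcript was matched to any of these 13 probes, and some may not report messenger RNA of the rabbit, which was not tested. Their values are therefore given as probe signal, and their sequences are not shown.

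The 13 probes also varied widely in groups outside the comparison, and did so together. At day 0, UF_Ocu_AF_103486 lay at -1.28, -6.37, -8.73, -9.21, -8.19 and -2.38 in replicates 1 to 6, and UF_Ocu_AF_100831 at -1.62, 3.18, 2.85, 3.39, 3.35 and -0.53. Replicates 1 and 6 lay apart from the other 4 for both, high for the first and low for the other, and the other 4 were at background for UF_Ocu_AF_103486. Within groups the range of these probes had a median of 4.80 over the 6 arrays of day 0, against 1.07 for all tested probes, and of 4.84 over the 5 arrays of covered wounds at day 5, against 0.96. Across the 23 arrays outside the comparison, deviations from the group mean correlated with a median r of 0.724 over the 34 pairs of different clones that moved in the same direction, and of -0.56 over the 42 pairs that moved in opposite directions. For pairs among the other called probes the medians were 0.158 (same direction) and -0.117 (opposite). These pairs share arrays and hence depth and labelling, and no test was made of them.

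Some of the 13 also share sequence although they are named for different clones. The longest run of bases that 2 such probes have in common was 13, for UF_Ocu_AF_103486 and UF_Ocu_AF_107910, and 3 of 76 pairs shared at least 11 bases (3.95%), against 0.211% of the pairs among the other called probes. The median longest run was 6 bases in both sets, and the longest among the other called probes was 52. UF_Ocu_AF_107909 and UF_Ocu_AF_107910 are of the same clone, nag38c02.y1, so their runs with UF_Ocu_AF_103486 join the same clones. The runs shared by UF_Ocu_AM_114702 and UF_Ocu_UN_120397, and by UF_Ocu_AF_103486 and UF_Ocu_AF_107909, were 12 and 11 bases long. The further probes of clones nag07a05.y1, nag26a09.x1 and nag09c05.y1 were not well above background on any array. Their part in these changes was not tested.

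**Figure D5:**
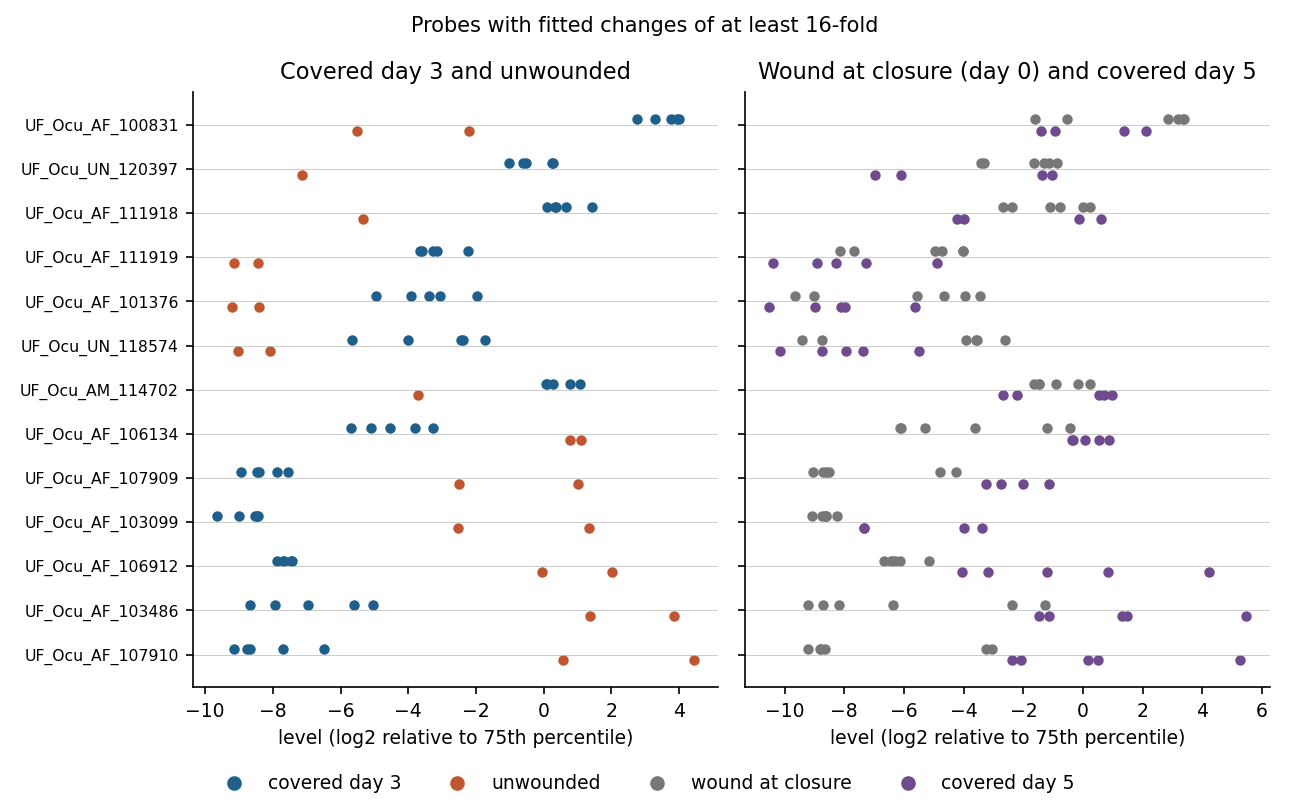
Levels of the 13 probes with a fitted change of at least 16-fold, ordered by that change, in log2 units relative to the 75th percentile of the array. The left panel gives covered day 3 wounds (blue, n = 5) and unwounded skin (orange, n = 2, or 1 for the 3 probes without a value on unwounded replicate 2), and the right panel gives the wound at closure (grey, n = 6) and covered wounds at day 5 (purple, n = 5, fewer where a spot was flagged). In the left panel the groups are apart for every probe, and in the right panel single groups spread over several log2 units, with a median range of 4.80 at closure and 4.84 at day 5.

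Probes that were well above background on all 7 arrays give changes against unwounded skin that do not rest on a floor, and 210 of the 314 called probes were of this kind (66.9%, against 68.2% of all tested probes). Of the probes with a change of at least 16-fold, UF_Ocu_AF_100831 and UF_Ocu_AF_106134 were of this kind. The largest changes below 16-fold without overlap between the groups, given next, were chosen after their values had been seen. UF_Ocu_UN_122516 lay at -3.58, -2.35, -3.16, -3.23 and -3.56 in covered wounds, against -5.13 and -5.75 in unwounded skin, 4.80-fold higher (limma adjusted p = 0.014). UF_Ocu_UN_119545 was 5.02-fold higher (limma adjusted p = 0.0382), with -2.96 ± 0.98 under film (SD, n = 5) against -5.29 ± 0.14 in unwounded skin (SD, n = 2). For both the covered arrays lay above the unwounded ones, as the choice required, and the 2 unwounded arrays lay within 0.62 of each other. Against unwounded replicates 1 and 2 alone the log2 changes were 1.96 and 2.57 for UF_Ocu_UN_122516 and 2.42 and 2.23 for UF_Ocu_UN_119545. Neither probe was called against replicate 1 alone, and UF_Ocu_UN_119545 was not called against replicate 2 alone either.

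Other rises of this kind turned on unwounded replicate 2. UF_Ocu_AF_100076, from contig R4.4837.C1, lay at -1.68, 0.49, -1.48, -0.01 and -0.40 in covered wounds, against -2.41 and -6.61 in unwounded skin. Its log2 change was 1.79 against unwounded replicate 1 (limma adjusted p = 0.634) and 6.00 against unwounded replicate 2 (limma adjusted p = 1.33e-05). UF_Ocu_AF_112410 had log2 changes of 1.59 (limma adjusted p = 0.659) and 5.49 (limma adjusted p = 1.33e-05) in the same order, and UF_Ocu_UN_119396 of 1.00 (limma adjusted p = 0.875) and 3.34 (limma adjusted p = 0.000337). The covered arrays lay above both unwounded arrays for these 3 probes, again as the choice required. The size of the rise, 14.9-fold for UF_Ocu_AF_100076 in the joint comparison, thus depends on the lower unwounded array.

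Falls below 16-fold measured on all 7 arrays were led by UF_Ocu_AF_102747. It lay at -5.38, -5.49, -5.85, -4.07 and -4.27 in covered wounds, against -2.47 and -1.43 in unwounded skin, 8.37-fold lower (limma adjusted p = 0.0102). UF_Ocu_UN_118482 was a bright probe, at 1.37 ± 0.53 under film (SD, n = 5) against 3.80 ± 0.27 in unwounded skin (SD, n = 2), 5.38-fold lower (limma adjusted p = 0.0253). UF_Ocu_AF_104910 was 5.73-fold lower (limma adjusted p = 0.000616) and had the smallest spread of these in covered wounds, -5.36 ± 0.17 (SD, n = 5), while the unwounded arrays lay at -4.10 and -1.58. Covered and unwounded arrays did not overlap for any of the 3, which their choice required. UF_Ocu_AF_105079, UF_Ocu_UN_116775 and UF_Ocu_UN_117986 were 4.98-fold, 4.11-fold and 3.99-fold lower (limma adjusted p = 0.0223, 0.0245 and 0.0288). None of these 6 falls was called against unwounded replicate 1 alone.

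UF_Ocu_UN_116775 and UF_Ocu_UN_117986 were lower than in unwounded skin and yet higher than in uncovered wounds, where each was well above background on 1 of 6 arrays. The differences from uncovered wounds therefore rest mostly on background signals there. UF_Ocu_UN_116775 lay at -5.23 ± 0.35 (SD, n = 5) in covered wounds, above uncovered wounds at day 3 by 1.69 (SE 0.36, limma adjusted p = 0.00185) and above day 0, where 1 of 6 arrays was well above background, by 2.32 (limma adjusted p = 5.71e-06). UF_Ocu_UN_117986 exceeded uncovered wounds by 1.39 (SE 0.36, limma adjusted p = 0.00943) and differed from day 0 by 0.05 (limma adjusted p = 0.924). By day 5 under film UF_Ocu_UN_117986 had risen by 1.21 over day 3 (limma adjusted p = 0.0243).

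For 2 called falls the unwounded arrays lay more than 3.9 apart and replicate 2 alone made the difference. UF_Ocu_AF_103456, from contig R4.2957.C1, lay between -9.09 and -8.58 in covered wounds, always at background, against -8.49 and -4.29 in unwounded skin. Unwounded replicate 1 was at background as well, so that no change can be given against it. In the joint comparison the rule used for the bounds put the probe 1.37-fold lower in covered wounds. That is no firm lower limit, because unwounded replicate 1 enters the mean at background. The probe was called against unwounded replicate 2 alone, with a fitted log2 change of -4.58. UF_Ocu_UN_118334, from clone naf28h09.x1, lay between -4.27 and -2.45 in covered wounds, against -2.96 and 0.96 in unwounded skin, and the groups overlapped. The adjusted p in the joint comparison was 0.0223 for UF_Ocu_AF_103456 and 0.0443 for UF_Ocu_UN_118334 (limma).

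The called probes can be set beside the other wound groups, each measured against the same 2 unwounded arrays. The 197 higher probes had a median log2 change of 1.15 in covered wounds at day 3. In the same probes the median was 0.78 in wounds at day 0, 0.90 in uncovered wounds at day 3 and 0.98 in covered wounds at day 5. For the 117 lower probes the medians were -1.33 in covered wounds at day 3, -1.44 at day 0, -1.27 in uncovered wounds at day 3 and -0.59 in covered wounds at day 5. These comparisons share their unwounded arrays, so that they are not independent of each other, and the probes were chosen by the first of them. Over all tested probes, wounds at day 0 had 4597 calls against unwounded skin (37.2%), uncovered wounds at day 3 had 1690 and covered wounds at day 5 had 971. The median size of the change of all tested probes was 0.39 in covered wounds at day 3, 0.66 at day 0, 0.48 in uncovered wounds at day 3 and 0.43 in covered wounds at day 5.

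Clones and contigs with several probes show how far neighbouring probes went together. A tested partner with the same clone or contig and the same design marking was available for 231 called probes. It changed in the same direction for 221 of them and in the opposite direction for 10, and it was itself called in the same direction for 88. Among all 4228 such pairs of tested probes, 76.3% had the same direction. The partners' median change in the direction of the called probe was 0.83, against 1.13 for the called probes themselves, which had been selected for size.

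What the called probes share beyond their change was limited. Of the 197 higher probes, 19 (9.64%) were well above background on all 5 covered arrays and on neither unwounded array, a pattern of 0.664% of tested probes. Of the 117 lower probes, 4 (3.42%) were well above background on both unwounded arrays and on no covered array, and these 4 are all the tested probes with that pattern. Both patterns contribute to a call by their construction. The median GC content was 43.3% in the higher, 41.7% in the lower and 45.0% in all tested probes. The letters AATAAA were found on the probe strand in 15 of the called probes (4.78%), 5 higher and 10 lower, against 10.6% of all tested probes, and on the other strand in 4.46% against 4.32%. Probes with AF in their name were called at 2.71%, those with UN at 1.91% and those with AM at 2.58%.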

How the data were processed

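Spot intensity was taken from the deposited output of Agilent Feature Extraction 10.1.1.1, background-subtracted per the file headers, with flags of 0 or 1 for spots well above background, saturated or outlying. The authors' deposited series table holds intensity too, linear, with nearly equal quantiles in every column. The submitters' processing notes name limma without its role. Here control spots and outlier-flagged spots were left out, spots of a probe were averaged on the log2 scale from the deposited intensities, and each array was set relative to the 75th percentile of the 7446 probes that exceeded background on every one of the 30 arrays. Tested were 12341 of 23369 probes, those detected on 2 or more arrays, in 1 limma 3.58.1 fit (R 4.3.3) of all 30 arrays and 6 groups, with no block and Benjamini-Hochberg adjustment. Tests are 2-sided. The number of arrays limits the precision.

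Named by rule, with 1 probe a clone, are the largest changes called against both unwounded arrays and each alone (3 on all 7 arrays, 2 at background in 1 group), the 3 called probes of at least 2-fold whose unwounded arrays differ most, 8 from earlier text, and, added after their values were seen, the others of the 8 probes called against each array, the 13 of at least 16-fold, the 12 largest changes below 16-fold on all 7 arrays without overlap, and further probes of the same clones. Members and lists were chosen with earlier results of these data known. Whether replicate numbers shared by the groups pair samples could not be told. The correlation of deviations was 0.52 for number 1 and -0.29 for number 2. With 2 unwounded arrays, the deviations of 1 mirror those of the other. Covered replicate 1 thus had -0.52 with unwounded replicate 2, and the sign does not show pairing. On simulated data the fit was checked for known changes. Alternatives covered scaling, background correction, the authors' values, the filter, slide, scan day, replicate block, array weights and single arrays left out. Of the 11408 clone and contig names of the design, 0 matched the RefSeq gene table (mOryCun1.1), so gene lists were not used.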

Additional observations from a re-analysis of the deposited data

Results flagged for a closer look

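In 1 covered group of 5 arrays, 1 array lay far from the others: covered day 3 replicate 3 was at 0.43 for UF_Ocu_UN_118482, while the other 4 lay between 1.53 and 1.67. The gap made up a share of 0.888 of the range of that group, and how often chance gives such a gap was not tested.

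Between the covered and the uncovered wound at day 3, 16.3% of all tested probes were called. Of the named probes called against unwounded skin, 5 passed this test (limma, adjusted over 12341 probes), all higher under film. The log2 differences were 1.69 for UF_Ocu_UN_116775, 1.39 for UF_Ocu_UN_117986, 0.68 for UF_Ocu_AF_112646, 0.62 for UF_Ocu_AF_103676 and 0.57 for UF_Ocu_AF_103675. The first 2 were well above background on 1 of 6 uncovered arrays each. The unwounded arrays cancel in this test, but the covered day 3 arrays, by which the probes or their partners were chosen, do not. Named probes not called against unwounded skin also passed. UF_Ocu_AF_109724, UF_Ocu_AF_109723, UF_Ocu_AF_101829, UF_Ocu_AF_101828 and UF_Ocu_AF_110295 were lower under film, with log2 differences of -9.41, -9.26, -6.86, -6.67 and -1.44. UF_Ocu_UN_119795 and UF_Ocu_AF_111877 were higher, by 3.37 and 2.95. All but UF_Ocu_AF_110295 had been named because of such differences, and several of these values rest in part on background signals.

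Between day 5 and day 3 under film, more of the named probes differed by the same test, in which 22.3% of all tested probes were called. The covered day 3 arrays, by which most of these probes were chosen, enter it too, so it is not independent of the choice. Differences are fitted values. Of the probes called lower than in unwounded skin at day 3, those that passed were higher at day 5, by 8.45 for UF_Ocu_AF_107910, 7.96 for UF_Ocu_AF_103486, 6.96 for UF_Ocu_AF_106912, 5.95 for UF_Ocu_AF_107909, 4.63 for UF_Ocu_AF_106134 and 3.31 for UF_Ocu_AF_103099. At day 3 every covered array was at background for UF_Ocu_AF_107910, UF_Ocu_AF_106912, UF_Ocu_AF_107909 and UF_Ocu_AF_103099. For the first 3, the measured signals put day 5 at least 139-fold, 72.2-fold and 23.5-fold higher, in that order. For UF_Ocu_AF_103099 they gave 2.53-fold, which is no firm lower limit, as 2 of the 5 day 5 arrays were well above background. For UF_Ocu_AF_103486, 2 of the 5 day 3 arrays were well above background. The smaller gains were 2.37 for UF_Ocu_AF_102747, 2.36 for UF_Ocu_UN_118482, 1.36 for UF_Ocu_AF_105079, 1.25 for UF_Ocu_AF_102078, 1.21 for UF_Ocu_UN_117986, 1.11 for UF_Ocu_AF_102079 and 0.93 for UF_Ocu_AF_111667, which was at background on all 5 arrays at day 3 and on 4 of 5 at day 5. UF_Ocu_AF_111877, not called against unwounded skin at day 3, went the other way, with a log2 difference of -2.08. Among those higher at day 3, UF_Ocu_AF_106538 gained a further 0.95. The others were lower at day 5, with log2 differences of -4.79 for UF_Ocu_AF_101376, -4.77 for UF_Ocu_AF_111919, -4.69 for UF_Ocu_UN_118574, -3.53 for UF_Ocu_UN_120397, -3.27 for UF_Ocu_AF_100831, -2.50 for UF_Ocu_AF_111918, -1.76 for UF_Ocu_AF_112410, -1.62 for UF_Ocu_AF_100076 and -1.01 for UF_Ocu_UN_119396. At day 5, UF_Ocu_AF_101376, UF_Ocu_AF_111919 and UF_Ocu_UN_118574 were well above background on 1 of 5 arrays. Covered day 5 replicate 1, on slide 6, lay apart from the other arrays of that group for several of these: UF_Ocu_AF_103486 was at 5.46 there and between -1.48 and 1.48 on the other 4. The part of this array was not tested. For UF_Ocu_AF_103486, UF_Ocu_AF_107910 and UF_Ocu_UN_118482, 1 of the 5 day 5 arrays was saturated, so that its level is a lower limit.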

How the results depend on the processing

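The 314 calls fell to 229 with the 75th percentile over all probes (105 higher, 124 lower) and with quantile normalization (122 and 107), and were 265 with normexp (120 and 145) and 337 with the authors' deposited values (151 and 186), so the share of higher calls depends on the scaling. Changed by more than 1.5 times were the counts with no filter on dim probes (140), slide as a random block (539), the replicate block (143), the 7 arrays alone (32), slide 6 left out (37), array weights (26) and slide 5 left out (832). Scan day as a block gave 214 calls, 84 higher and 130 lower. Single arrays left out gave 11 to 1873 calls; the lower end leaves out unwounded replicate 2 and the upper end unwounded replicate 1. Leaving out covered replicate 1, 2 or 3 gave 177, 181 and 180. At 2-fold or more, the 212 calls became 128 with normexp, 118 with the authors' values, 127 with no filter, 319 with slide as a random block, 107 with the replicate block, 32 with the 7 arrays, 37 without slide 6, 25 with array weights, 776 without slide 5, and 11 to 1637 with single arrays left out. The median log2 change of 0.09 turned to -0.185 with no filter, -0.0596 with slide and -0.0738 with scan day as a fixed block, and -0.044 without slide 6, and ran from -0.044 to 0.16 with single arrays left out. Which probes were called against each unwounded array changed with the scaling. Of the 8, UF_Ocu_AF_102078, UF_Ocu_AF_102079 and UF_Ocu_AF_112646 were called in all 6 scalings, and UF_Ocu_AF_103099 and UF_Ocu_AF_103676 in 5. UF_Ocu_AF_110296 and UF_Ocu_AF_111667 were called in 3 and UF_Ocu_AF_106538 in 2. Other probes, among them UF_Ocu_AF_104047 in 3, were called only under other scalings. Over all alternatives for the 42 named probes, 777 values kept their side of the threshold, 164 lost the call and no called value reversed. The authors' values gave the smallest change for each of the 8 probes, such as 0.81 for UF_Ocu_AF_103676 and -0.61 for UF_Ocu_AF_111667, both still called. UF_Ocu_AF_106538 lost it in 6, among them the authors' values (log2 change 0.25, adjusted p = 0.284), and UF_Ocu_AF_110296 in 2. The cause was not tested.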
